A study of Mus musculus with 8 samples.

Results

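Cytochrome P450 enzymes are heme proteins of the endoplasmic reticulum that add oxygen to drugs, pollutants, fatty acids and other small molecules, and 9 genes of this xenobiotic system are described here in the lungs of newborn mice. They are the P450 genes Cyp1a1, Cyp1b1, Cyp2b10, Cyp2e1, Cyp2f2, Cyp2s1 and Cyp4b1, the sensor gene Ahr and the reductase gene Por. They were chosen by symbol, and the choice was made with results of this comparison in view, among them a value of Cyp2e1. The differences of the 9 genes are therefore a description and carry no test. The platform annotation gave them 11 of 31465 named array features, and 9 of 20863 current gene symbols. Cyp2e1 and Ahr had 2 features each and the other 7 genes had 1. All 11 features had a value on every array and lay above the filter on low values, which was set on the mean over all 8 arrays.

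The series compared whole lungs of C57Bl/6J pups that breathed 85% oxygen between postnatal days 0 and 3, on 1-colour Agilent arrays. According to the labels, 4 arrays came from pups heterozygous for Fgf10 and 4 from wild-type pups, each a separate sample. Both groups received oxygen, so nothing here compares oxygen with room air. High oxygen is used in newborn rodents as a model of bronchopulmonary dysplasia, and Fgf10 is a growth factor of the lung mesenchyme. The labels do not say which part of Fgf10 was changed, and the titles call the heterozygous group TG without saying what TG stands for. Each of the 10 Fgf10 features was brighter on average in the heterozygous group, with log2 differences of 0.06 to 0.44. Fgf10 thus does not check the labels, on which every direction below rests. Nothing says that the pups came from separate litters, so errors measure the spread between these samples. Among 25758 tested features 187 were called, which is 0.726%, 47 of them higher and 140 lower in the arrays labelled Fgf10+/-.

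P450 enzymes of families 1 to 4 carry most of the oxidation of foreign compounds, and each needs electrons that Por, the P450 reductase, passes from NADPH. The aryl hydrocarbon receptor, the product of Ahr, is a ligand-activated transcription factor that binds DNA with its partner Arnt and induces Cyp1a1 and Cyp1b1. In the lung, club cells of the airway are known for Cyp2f2 and Cyp4b1, while Cyp1a1 is known for its induction in epithelium and endothelium. P450 enzymes are studied in oxygen exposure, since some of them make reactive oxygen species and others clear lipid products of oxidation.

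The windows around the start of 3 genes are shown because Cyp1a1 and Cyp1b1 are the classic targets of the aryl hydrocarbon receptor and Cyp2e1 had the largest difference of the 9 genes. They run from 250 bases before to 50 bases after the gene start, 5′ to 3′ on the gene's strand, and come from RefSeq on build GRCm38.p6. Capitals mark GCGTG, the core letters bound by the receptor with Arnt (CACGC when on the other strand), and TATAAA, the letters of a TATA box, each searched on both strands.
Cyp1a1, chr9:57697363-57697662, plus strand: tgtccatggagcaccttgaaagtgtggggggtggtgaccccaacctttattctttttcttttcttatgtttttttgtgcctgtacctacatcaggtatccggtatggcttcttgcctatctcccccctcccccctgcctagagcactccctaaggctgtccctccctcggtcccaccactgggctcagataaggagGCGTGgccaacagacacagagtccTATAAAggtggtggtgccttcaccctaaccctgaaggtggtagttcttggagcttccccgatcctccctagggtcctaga
Cyp1b1, chr17:79715012-79715311, minus strand: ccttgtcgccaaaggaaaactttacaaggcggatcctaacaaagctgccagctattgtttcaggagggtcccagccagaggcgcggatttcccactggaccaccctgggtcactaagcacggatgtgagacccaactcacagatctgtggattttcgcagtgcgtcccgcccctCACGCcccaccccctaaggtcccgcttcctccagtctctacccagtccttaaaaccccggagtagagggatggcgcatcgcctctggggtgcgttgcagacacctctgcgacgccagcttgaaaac
Cyp2e1, chr7:140763569-140763868, plus strand: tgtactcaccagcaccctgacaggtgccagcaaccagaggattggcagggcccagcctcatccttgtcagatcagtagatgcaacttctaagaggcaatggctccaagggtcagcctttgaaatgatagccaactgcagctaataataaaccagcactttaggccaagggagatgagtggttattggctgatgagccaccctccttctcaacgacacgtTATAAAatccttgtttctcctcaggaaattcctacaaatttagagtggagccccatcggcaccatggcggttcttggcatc
In Cyp1a1 GCGTG began 54 bases and TATAAA 30 bases before the gene start. The window of Cyp1b1 held GCGTG on the other strand, 76 bases before the start, and no TATAAA. That of Cyp2e1 held TATAAA 31 bases before the start and no GCGTG. Of the 8 genes with a window, 4 held GCGTG, the others being Cyp2b10 and Por, and 2 held TATAAA. Among all 32851 RefSeq windows, 32.4% held GCGTG and 13.6% held TATAAA, and the motifs share no overlap in the windows shown. A match describes letters in this window only.

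Cyp2e1 was the member that stood apart between the groups, and only in 1 of its 2 features. Cyp2e1 oxidises ethanol, acetone and small solvents and is known as a source of reactive oxygen species. Its feature 1 read 5.57, 7.26, 6.43 and 7.01 on the log2 scale in arrays 1 to 4 labelled Fgf10+/-, and 4.61, 4.70, 4.54 and 5.12 in wild-type arrays 1 to 4. All 4 arrays labelled Fgf10+/- lay above the highest wild-type array, and their spread was wider, with an SD of 0.75 against 0.26. The means were 6.57 and 4.74 (n = 4 each), a log2 difference of 1.82 (SE 0.33, 95% interval 1.11 to 2.54), or 3.54-fold (2.15 to 5.82). Feature 1 was the single member feature of 11 that limma called and also the single one whose groups did not overlap. Of all tested features 6.25% had groups that did not overlap, 2.91% with the arrays labelled Fgf10+/- higher and 3.34% with them lower. The share called was 0.726% in all, 0.182% higher and 0.544% lower. Nothing is read from these counts, because Cyp2e1 was chosen with this difference known.

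The other Cyp2e1 feature did not show the difference, but both features were dim. Over the 8 arrays feature 2 had a mean of 4.28, the lowest of the member features, and feature 1 had a mean of 5.65. Whether such values were above background is unknown, so the readings of feature 2 cannot decide whether Cyp2e1 differed. Feature 2 read 3.78, 4.10, 3.65 and 5.03 in arrays 1 to 4 labelled Fgf10+/- and 4.05, 4.01, 4.45 and 5.18 in wild-type arrays 1 to 4. The groups overlapped, array 4 was the highest in each, and the log2 difference was -0.28 (SE 0.38, 95% interval -1.11 to 0.54). The annotation gives both features the same transcript accession, and no probe sequence was used here, so where each lies on the transcript is unknown. Opposite signs between features were common, in 38.7% of the 3699 genes with exactly 2 tested features. A gap in log2 difference as wide as that of Cyp2e1, 2.11, was found in 4 of the 3699, Cyp2e1 included. Over the 8 arrays the 2 features had a Pearson r of 0.02, and after subtraction of each group's mean r was 0.58, which is given as a description of 8 arrays that share the groups. With the features of each gene averaged, the difference of Cyp2e1 was 0.77 and it was not called.

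**Figure D1:**
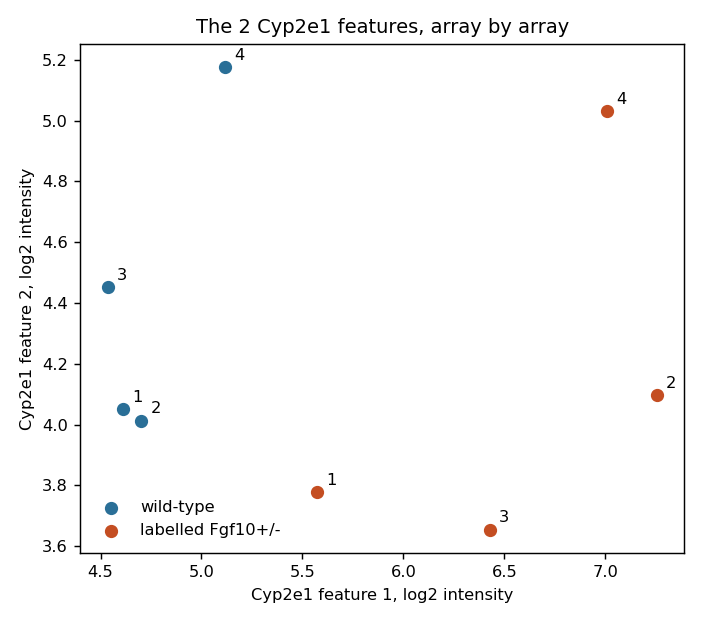
Log2 intensity of Cyp2e1 feature 1 (horizontal axis) against feature 2 (vertical axis), 1 point per array with its replicate number, wild-type in blue and labelled Fgf10+/- in orange. The 4 orange points lie to the right of the 4 blue ones on feature 1, from 5.57 to 7.26 against 4.54 to 5.12, while on feature 2 the colours mix.

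The call of Cyp2e1 feature 1 was sensitive to single arrays. It was called in 3 of the 8 fits that left out 1 array and was lost without array 2, 3 or 4 labelled Fgf10+/- or without wild-type array 2 or 3. Its log2 difference in these 8 fits was lowest without array 2 labelled Fgf10+/-, at 1.59, and highest without array 1 of that group, at 2.15. With the Xist level of each array as a covariate, which stands for the sex of the pup, the difference was 1.80 and the call was lost.

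Markers of some cell types moved with the groups. In bulk lung fewer cells of a type and less RNA per cell cannot be told apart. Of 14 alveolar type 2 markers 6 were called higher, and their mean level lay between 12.42 and 12.54 in arrays labelled Fgf10+/- and between 12.15 and 12.27 in wild-type arrays. Of 9 tested markers of dividing cells 7 were called lower, with mean levels of 7.16 to 7.81 against 8.27 to 9.25. None of 13 club cell markers was called by limma and 1 had an unadjusted p below 0.05, with overlapping levels of 11.35 to 11.79 and 11.28 to 11.56. Their differences were positive in 11 and negative in 2 (median 0.20). The club cell markers Scgb1a1 and Cbr2, at 15.96 and 15.98 in both groups, lay near 15.99, the highest value of the arrays. The part of these cell types in the Cyp2e1 difference was not tested. Liver is a tissue rich in Cyp2e1. The mean level of hepatocyte markers was highest in wild-type array 2, at 5.96, where Cyp2e1 feature 1 read 4.70, and it lay between 4.37 and 4.84 in the other 7 arrays. None of 12 tested hepatocyte markers was called by limma, with 2 at an unadjusted p below 0.05. Of their differences 6 were positive and 6 negative (median -0.09). The 2 at an unadjusted p below 0.05 went opposite ways. Trf, the brightest of the list at 13.54 against 13.14, had 0.40 (SE 0.10), and Fgb had -0.92 (SE 0.40). Ttr, Cps1 and Fabp1 were below the filter, and albumin (Alb) read 3.48 ± 0.33 and 4.15 ± 0.70 (SD, n = 4 each). None of 9 tested adipocyte markers was called either, with 2 at an unadjusted p below 0.05 and levels of 4.91 to 5.34 against 5.02 to 5.32. limma called none of 10 ciliated cell markers, but all 10 differences were positive (median 0.38) and 6 had an unadjusted p below 0.05, with levels of 8.90 to 9.30 against 8.29 to 8.98. Nor was any of 10 macrophage markers called, with 7 differences negative (median -0.42), 4 at an unadjusted p below 0.05 and levels of 7.55 to 7.85 against 7.76 to 8.28. None of 12 endothelial and none of 6 red blood cell markers was called, with 2 and 0 at an unadjusted p below 0.05 and medians of -0.06 and 0.11. Over all tested features 10.6% had an unadjusted p below 0.05. The part of hepatocytes, adipocytes, ciliated cells, macrophages, endothelium and red blood cells in the Cyp2e1 difference was not tested either.

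The xenobiotic sensor and its classic targets Cyp1a1 and Cyp1b1 had groups that overlapped and 95% intervals that held 0. Ahr feature 1 read 11.37, 11.44, 11.62 and 11.70 in arrays 1 to 4 labelled Fgf10+/- and 11.53, 11.43, 11.32 and 11.42 in wild-type arrays 1 to 4. Arrays 3 and 4 labelled Fgf10+/- were above every wild-type array and the other 2 were not. The difference was 0.11 (SE 0.09, 95% interval -0.08 to 0.30). Ahr feature 2, a dim feature, had means of 4.74 and 5.11 and a difference of -0.38 (SE 0.35, 95% interval -1.14 to 0.38), and array 1 labelled Fgf10+/- was its lowest at 3.73. The 2 Ahr features thus had opposite signs, and averaging them gave -0.13.

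Cyp1a1, which oxidises polycyclic aromatic hydrocarbons, had the second largest difference and the widest scatter. It read 4.78, 4.51, 4.09 and 5.65 in arrays 1 to 4 labelled Fgf10+/- and 4.57, 2.91, 3.62 and 4.78 in wild-type arrays 1 to 4. Array 4 labelled Fgf10+/- was the highest and wild-type arrays 2 and 3 were the lowest, with the rest of the groups mixed. The log2 difference was 0.79 (SE 0.45, 95% interval -0.18 to 1.75), and it ranged from 0.43 to 1.06 when 1 array was left out. Wild-type array 2 lay near the filter level of 2.76, and whether such values were above background is unknown.

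Cyp1b1, which acts on aromatic hydrocarbons and on oestrogens and is known from mesenchymal and vascular cells, leaned the other way. It read 4.97, 4.72, 5.51 and 5.69 in arrays 1 to 4 labelled Fgf10+/- and 6.00, 5.30, 5.93 and 5.04 in wild-type arrays 1 to 4. Wild-type arrays 1 and 3 were the highest, and arrays 1 and 2 labelled Fgf10+/- were the lowest. Its difference was -0.35 (SE 0.31, 95% interval -1.01 to 0.32). Over the 8 arrays Cyp1a1 and Cyp1b1 had a Pearson r of -0.08.

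**Figure D2:**
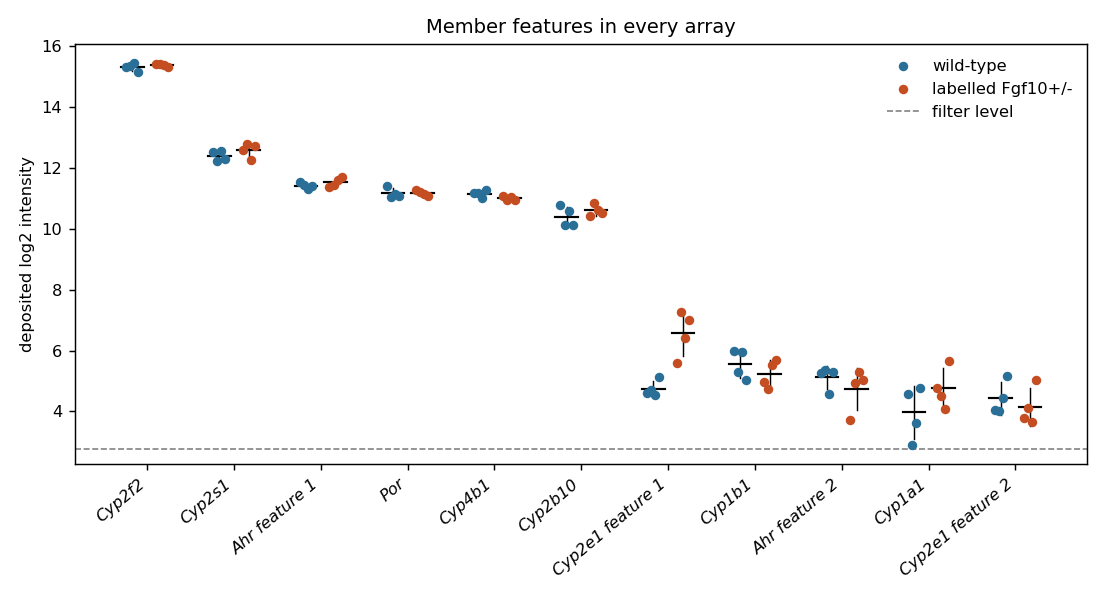
Deposited log2 intensity (vertical axis) of each of the 11 member features (horizontal axis), with the 4 wild-type arrays in blue and the 4 arrays labelled Fgf10+/- in orange, arrays 1 to 4 from left to right; horizontal bars are means, vertical bars 1 SD, and the dashed line is the filter level of 2.76. Only Cyp2e1 feature 1 has groups that do not overlap; brightness of different features is not a comparison of RNA between genes.

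The P450 genes known for their airway expression were bright and varied little. Cyp2f2, a club cell enzyme that activates naphthalene, read 15.44, 15.42, 15.40 and 15.32 in arrays 1 to 4 labelled Fgf10+/- and 15.31, 15.34, 15.45 and 15.15 in wild-type arrays 1 to 4. The groups overlapped, and the difference was 0.08 (SE 0.07, 95% interval -0.08 to 0.23). The feature lay near 15.99, the top of the scale, where differences can be compressed. Cyp4b1, which oxidises fatty acids and furans, read 11.08, 10.96, 11.04 and 10.93 in arrays 1 to 4 labelled Fgf10+/- and 11.16, 11.18, 11.01 and 11.26 in wild-type arrays 1 to 4. Wild-type array 3 was the single wild-type array within the range of the other group. The difference of Cyp4b1 was -0.15 (SE 0.08, 95% interval -0.33 to 0.02), and it stayed between -0.20 and -0.12 with 1 array left out.

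Cyp2s1 and Cyp2b10 lie next to each other among the coding genes of chromosome 7 in RefSeq. Cyp2s1, an extrahepatic P450 of epithelia, read 12.60, 12.78, 12.26 and 12.72 in arrays 1 to 4 labelled Fgf10+/- and 12.54, 12.22, 12.56 and 12.31 in wild-type arrays 1 to 4. Array 3 labelled Fgf10+/- fell within the wild-type range and the other 3 lay above it. The difference was 0.18 (SE 0.11, 95% interval -0.06 to 0.43). Cyp2b10, the classic target of the nuclear receptor CAR, read 10.43, 10.86, 10.61 and 10.52 in arrays 1 to 4 labelled Fgf10+/- and 10.77, 10.14, 10.59 and 10.11 in wild-type arrays 1 to 4. The groups overlapped, with wild-type arrays 2 and 4 lowest, and the difference was 0.20 (SE 0.15, 95% interval -0.11 to 0.52). Over the 8 arrays Cyp2s1 and Cyp2b10 had a Pearson r of 0.65, the highest of the 55 pairs of member features. It was 0.58 after subtraction of the group means, with both genes measured in the same 8 RNA samples. Other pairs were then higher, such as the 2 Ahr features at 0.76 and Cyp2b10 with Por at 0.68. The lowest r over the 8 arrays, -0.70, was that of Cyp2e1 feature 1 with Cyp4b1. It was -0.25 after subtraction of the group means.

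Por showed the smallest difference of all. It read 11.29, 11.23, 11.14 and 11.07 in arrays 1 to 4 labelled Fgf10+/- and 11.42, 11.06, 11.15 and 11.08 in wild-type arrays 1 to 4. The values of the groups were interleaved around means of 11.18 and 11.18, with a difference of 0.00 (SE 0.09). The 95% interval ran from -0.20 to 0.21, so a larger change in either direction lay outside it.

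Across the 11 features 7 differences were positive and 4 negative, with a median of 0.08 against 0.00 over all tested features. The median size, regardless of sign, was 0.20 against 0.17 over all tested features. In 10 of the 11 features the 95% interval held 0. The precision followed the brightness of the feature. The 6 features with a mean above 10 had a pooled SD within groups of 0.09 to 0.27, and the 5 with a mean below 6 had 0.46 to 0.77. The SE of the difference was 0.07 to 0.15 in the bright features and 0.31 to 0.45 in the dim ones.

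**Figure D3:**
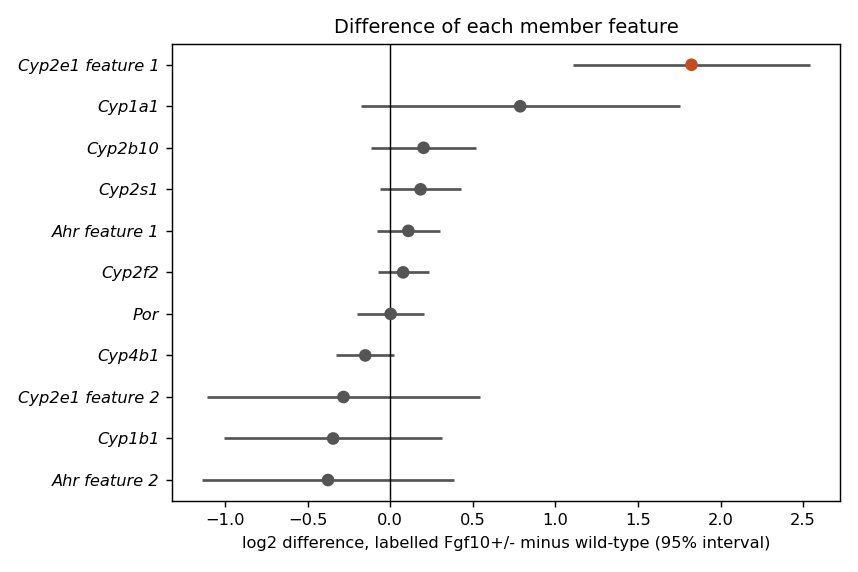
Log2 difference of each of the 11 member features (labelled Fgf10+/- minus wild-type, horizontal axis) with its 95% interval from the fit over all features. Cyp2e1 feature 1, in orange, lies at 1.82, and the intervals of the other 10 features hold 0.

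By likeness over the 8 arrays, the 5 of 15968 other named genes closest to Cyp2e1 feature 1 were St6gal2 (Pearson r 0.98), Dnal4 (0.97), Ikzf5 (0.96), Akr1c19 (0.96) and Epn3 (0.96). St6gal2 is a sialyltransferase gene with means of 3.39 and 2.56, the latter below the filter level. Akr1c19, a gene of the aldo-keto reductases, read 7.78 against 7.30, a difference of 0.48 (SE 0.15). None of the 5 was called. For Cyp1b1, which had the most negative difference when each of the 9 genes was represented by its feature with the higher mean, the closest genes were Ascc3 (0.98), F2rl1 (0.96), Zfp874a (0.93), Pdia5 (0.93) and Dda1 (0.93), and none of these 5 was called. With 8 arrays and so many genes searched, such values of r describe these arrays only.

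Of the other genes of xenobiotic metabolism, 157 in 9 lists were tested and 1 was called, which is 0.637% and close to the 0.726% of all tested features. Their median difference was 0.06, and 18 had an unadjusted p below 0.05, against 10.6% of all tested features. The called gene was Cyb5r3, the cytochrome b5 reductase that offers P450 enzymes another route for electrons besides Por. Cyb5r3 read 10.67, 10.49, 10.66 and 10.61 in arrays 1 to 4 labelled Fgf10+/- and 11.07, 11.05, 10.88 and 11.08 in wild-type arrays 1 to 4. All arrays labelled Fgf10+/- lay below the lowest wild-type array, number 3. Cyb5r3 fell by 0.41 on the log2 scale (SE 0.08, limma adjusted p = 0.038), and its other feature had the same sign. It was called in 1 of the 8 fits that left out 1 array, the fit without wild-type array 3, and the difference in these fits lay between -0.46 and -0.37. The other 9 electron partners were not called, with Cyb5b at 0.18 (SE 0.08), whose other feature had the opposite sign, and the ferredoxin gene Fdx2 at 0.17 (SE 0.09).

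Around the aryl hydrocarbon receptor, none of 11 tested genes of its complex and its targets was called by limma and 1 had an unadjusted p below 0.05. The differences of 10 of them were positive, with a median of 0.11. Arnt, the partner of the receptor, had 0.47 (SE 0.18, limma adjusted p = 0.344), while a second Arnt feature ran the opposite way. Nfe2l2, the gene of the antioxidant factor NRF2, had 0.12 (SE 0.08). Cyp1a2, the neighbour of Cyp1a1 on chromosome 9, was below the filter with means of 2.83 and 2.35. The mean level of the list lay between 9.29 and 9.45 in arrays labelled Fgf10+/- and between 9.10 and 9.28 in wild-type arrays.

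Among 11 tested nuclear receptors and factors of P450 induction none was called by limma and 1 had an unadjusted p below 0.05, with a median of 0.02. That 1 was Cebpa, a transcription factor of liver, fat and alveolar type 2 cells, at 0.65 (SE 0.16, limma adjusted p = 0.0946), with values of 8.74 to 9.12 against 7.92 to 8.59 that did not overlap. Nr1i3, which encodes CAR, the inducer of Cyp2b10, had 0.67 (SE 0.40). Its wild-type SD was 0.92.

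Other P450 genes gave no call. On the array were 69 further genes of families 1 to 4, of which 30 lay below the filter and 39 were tested. limma called none, none had an unadjusted p below 0.05, and 24 differences were positive and 15 negative, with a median of 0.06. The values with the smallest p were -0.76 (SE 0.36) for Cyp4a31 and 0.29 (SE 0.18) for Cyp2j8. Of 10 tested P450 genes of other families, which act on sterols, retinoids and vitamin D, none was called by limma and 1 had an unadjusted p below 0.05. Cyp26b1, which breaks down retinoic acid, had 0.59 (SE 0.18, limma adjusted p = 0.215). Cyp39a1, an oxysterol hydroxylase gene, had 1.04 (SE 0.54), with wild-type arrays spread from 6.02 to 9.29.

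Heme supply, further oxidation, conjugation and export likewise held no called gene. None of 12 heme genes had an unadjusted p below 0.05 (median 0.09), with Alad, an enzyme of heme synthesis, at 0.24 (SE 0.13) and the biliverdin reductase gene Blvrb at -0.19 (SE 0.10). The counts at an unadjusted p below 0.05 in these lists are to be read against the 10.6% of all tested features. Of 28 other phase I enzymes 7 had an unadjusted p below 0.05 (median 0.00), among them Fmo2, the lung flavin monooxygenase, at -0.39 (SE 0.13) and the paraoxonase gene Pon1 at 0.66 (SE 0.22). Of 28 conjugating enzymes 4 had an unadjusted p below 0.05 (median 0.03), including the glutathione transferase Gstm2 at -0.28 (SE 0.08) and the sulfotransferase Sult1a1 at -0.39 (SE 0.13). Of 8 efflux transporters 2 had an unadjusted p below 0.05 (median 0.08). Abcc6 had 1.32 (SE 0.43) from means of 4.16 and 2.84, the latter near the filter level, and Abcg2, a drug efflux pump, had -0.24 (SE 0.10). limma's adjusted p lay between 0.173 and 0.559 for these 8 named genes.

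**Figure D4:**
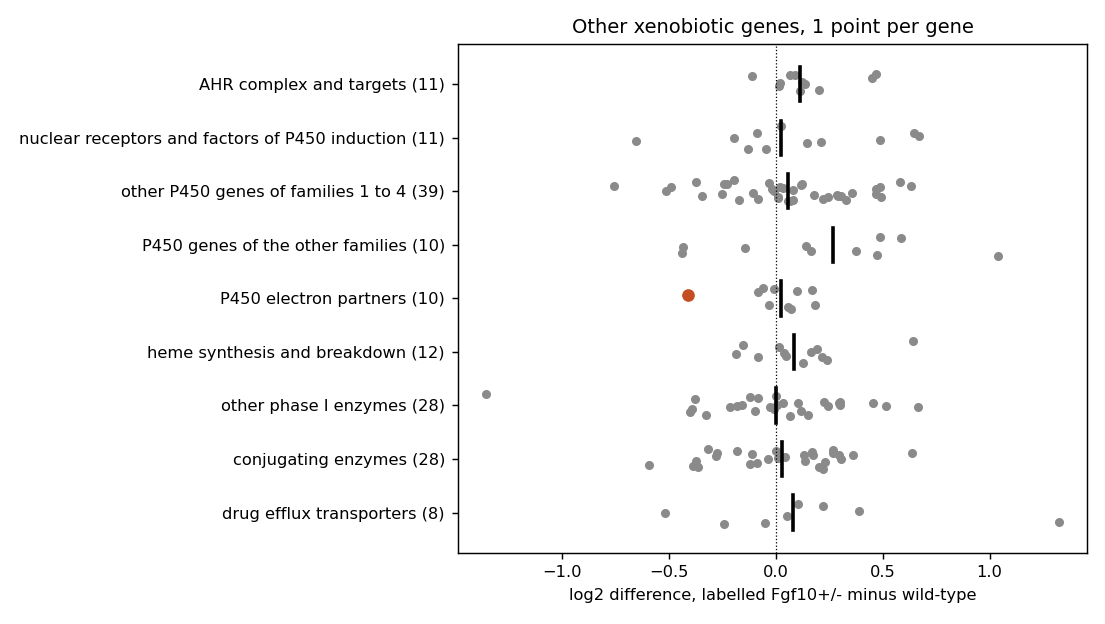
Log2 difference (labelled Fgf10+/- minus wild-type, horizontal axis) of each tested gene in 9 lists of xenobiotic genes other than the 9 members, with the number tested in brackets, black bars at list medians and points spread vertically at random. The single called gene, Cyb5r3 at -0.41, is in orange, and list medians lie between 0.00 and 0.27.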

How the data were processed

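The deposited table held log2 intensities for 62976 features on 8 arrays. Per the labels, the arrays were 1-colour (Cy3), and per the submitters' processing notes limma was used, with no version or step and a background correction not given in the sources used here. The 8 columns had nearly equal medians, 3.69, so they were used as deposited. Arrays have no read depth; the number of arrays sets the precision. Symbols came from the platform annotation, and 29050 of 31465 named features were matched by accession to RefSeq. The 31511 unnamed features were left out, and 31413 named features had no missing value. Of these, 25758 had a mean at or above 2.76, the 30th percentile of all features without a missing value, and were tested. Differences, SE and 95% intervals came from limma 3.58.1 in R 4.3.3 (lmFit, eBayes with a variance trend), with Benjamini-Hochberg adjustment over all tested features. A feature was called at an adjusted p below 0.05. Each listed gene was represented by its feature with the highest mean.

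The members and gene lists were chosen with earlier results of these data known. The text names every member. From each of the 9 lists of other xenobiotic genes it names called genes and the 2 uncalled genes with the smallest p. With each member represented by its feature with the highest mean, it names the 5 genes most alike to the members with the highest and lowest difference. Cyp1a2, the club cell markers Scgb1a1 and Cbr2, and the hepatocyte markers were named outside this rule, after their values were seen. The fit was tested on simulated data. Alternatives were other normalizations, filters, ways to combine features and variance models, array weights, Xist as a covariate, the replicate number as a block, and each array left out. Same-numbered arrays did not deviate together.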

Additional observations from a re-analysis of the deposited data

Results flagged for a closer look

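In 60 groups of 4 arrays, those of the 11 member features and of 19 named list genes, 3 held an array far from the other 3. About 1 in 20 such groups is marked by chance. In Ahr feature 2 wild-type array 3, at 4.56, lay below the others at 5.26 to 5.35, a gap of 0.882 of the group's range. In Cyb5r3 wild-type array 3, at 10.88, lay below the others at 11.05 to 11.08 (0.852 of the range). In Gstm2 wild-type array 1, at 11.96, lay below the others at 12.22 to 12.24 (0.932 of the range).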

How the results depend on the processing

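Of 193 values of the member differences under 18 alternatives, 191 moved by less than 1 SD between replicates, the called value never changed sign, and 2 moved further, Ahr to -0.13 and Cyp2e1 to 0.77, with the features of each gene averaged. Cyp2e1 feature 1 was called in 10 of the 18 alternatives and Cyb5r3 in 6. Averaging the features of a gene gave 27 higher and 73 lower calls, 0 among the members and 0 among the listed genes. Without the variance trend limma made 0 calls in all 4 counts, with 2407 features at an unadjusted p below 0.05. The Xist covariate gave 25 higher and 87 lower calls, 0 among members and 0 among listed genes. Listed genes fell from 1 call to 0 with arrays centred on their medians, and to 0 with the replicate block. With 1 array left out, higher calls ranged from 15 to 53 and lower calls from 25 to 186, fewest without wild-type array 2 and most without wild-type array 1. The members and the listed genes each had 0 to 1 calls. Without wild-type array 1 the 1 listed call was a gene other than Cyb5r3, which had a limma adjusted p of 0.062. The replicate block gave 37 higher and 115 lower calls and kept the Cyp2e1 call. Same-numbered arrays correlated by -0.08 to 0.06 after subtraction of group means, which shows no shared deviation. The labels do not say what the replicate number stands for, and these values cannot show whether the samples were paired. The cause of these changes was not tested. Whether dim features lay above background is unknown.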

Other observations

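Some phase I and conjugating enzymes outside the naming rule had an unadjusted p below 0.05 without passing adjustment, and they were chosen after their values were seen. The carboxylesterase gene Ces2e had a log2 difference of -1.36 (SE 0.50) and the quinone reductase Nqo2 -0.33 (SE 0.13). The mitochondrial aldehyde dehydrogenase Aldh2 had 0.46 (SE 0.19), Aldh1a7 0.30 (SE 0.11) and the monoamine oxidase Maob 0.30 (SE 0.10). The glutathione transferases Gstt2 and Gstk1 had 0.36 (SE 0.15) and 0.22 (SE 0.10).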
